A study of Rattus norvegicus with 12 samples.

Results

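Neuronal adhesion, cytoskeleton and synaptic genes were followed in CRI-G1, a rat insulinoma line that secretes insulin. The module holds 44 genes chosen by symbol, from RNA-binding proteins of neurons through microtubule proteins, neurofilaments and cell adhesion molecules to synaptic proteins and enzymes of transmitter synthesis. A gene was measured where a probe set of the array carried its symbol alone, which held for 43 of the 44 (Lrrn1 had no such probe set) among 14218 measured genes. CRI-G1-RS cells, a subclone, are susceptible to the complex I inhibitor rotenone, and CRI-G1-RR cells, the original clone, are resistant to it. Both lines were grown untreated in the same high-glucose medium with 10% serum, and 6 passages of each were sampled. RS is a single subclone that was frozen after one change in cell shape in culture, so that a difference between the lines cannot be told apart from a difference between these clones. Since the samples are passages of 1 line each, p-values measure only the spread between passages.

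Insulin-secreting β cells and neurons share much of their machinery for regulated exocytosis, and insulinoma lines commonly express neuronal cytoskeletal and vesicle genes. In neurons, ELAV-like (Hu) and CELF proteins bind RNA in the nucleus and cytoplasm and act on splicing and on the stability of messages. Microtubule-associated proteins, stathmins and neurofilaments shape the axon, while adhesion molecules of the immunoglobulin and leucine-rich repeat families act at the growth cone and at the synapse.

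The 12 arrays had median signals between 69.1 and 80.2 on a linear scale. The mean correlation of an array with the others of its line was 0.9797 to 0.9851, and with those of the other line 0.9556 to 0.963. RS replicate 2 had the lowest of the first and carried the lowest weight (0.464) when arrays were weighted by their fit. Among markers of islet endocrine cells, none was dim. Of the 11 measured, 7 were higher and 0 lower in RS, where 21.0% and 18.3% of all genes were. Ins1, the brightest, Iapp, Chgb and Isl1 did not pass. Ins1 had 6495 ± 978 in RS and 7118 ± 309 in RR (SD, n = 6 each; log2 change -0.06, adjusted p = 0.408). The paper, with other processing of the arrays, reports Ins1 as higher in RS cells, on the arrays and by qRT-PCR. The summed signals of the 11 were 28581 to 33038 in RS and 24106 to 28043 in RR cells. Of 9 neuronal genes outside the module, 3 were higher (Slc17a7, Nrgn and Grin1, where 21.0% of all genes were) and 2 lower (Slc17a6 and Snap25, against 18.3%). Their summed signals were 4039 to 4662 in RS and 4079.8 to 4760.4 in RR, most of it from Snap25, at 3166 ± 196 in RS and 3733 ± 264 in RR (SD, n = 6 each). Markers of acinar cells, endothelium and leukocytes were at a mean signal under 50 in both lines without exception, as were 4 of 6 astrocyte markers, 3 of 5 of oligodendrocytes and Schwann cells and 3 of 6 of fibroblasts. Summed signals were 192 to 261 in RS and 166 to 329.6 in RR for astrocyte markers, and 465 to 603 in RS and 463 to 571 in RR for those of oligodendrocytes and Schwann cells. They were 49.5 to 105 in RS and 67.6 to 98.3 in RR for acinar cells, 49.1 to 83.9 in RS and 54.8 to 86.5 in RR for endothelium, and 39.6 to 75.1 in RS and 45.2 to 89.8 in RR for leukocytes. For fibroblast markers they were 307 to 390.2 in RS and 230.5 to 299.5 in RR, with Pdgfra, a growth factor receptor, higher in RS (log2 change 0.74, adjusted p = 4.85e-04) and Col1a1, Col1a2 and Col3a1 not past the threshold. Since RNA came from whole cultures, fewer cells that express a gene and less of its RNA per cell cannot be told apart.

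The RS and RR lines were compared by limma on log2(signal + 16) after quantile normalization, with p-values adjusted over 31099 probe sets by the Benjamini-Hochberg method and a threshold of 0.05. Every log2 change, the fold change on the log2 scale, is RS minus RR, and the probe set with the highest mean signal over the 12 arrays stands for a gene. Of the 43 genes, 16 were higher in RS cells (37.2%, where 21.0% of all 14218 genes were) and 5 were lower (11.6%, where 18.3% of all genes were). The other 22 did not pass. The median log2 change was 0.10 over the module and 0.02 over all genes, and the median absolute log2 change was 0.20 over the module and 0.21 over all genes. A change of at least 2-fold that also passed was found in 6 of 43 genes (14.0%, where 4.85% of all genes had one). Lrrn3, Elavl3, Elavl2, Elavl4 and Gap43 were the 5 higher in RS (2.36% of all genes) and Ncam1 the 1 that was lower (2.49%). This count depended on the pseudocount of 16, as 3 genes reached 2-fold with a pseudocount of 64. In 13 genes every RS array lay above every RR array (14.6% of all genes), in 4 every RS array lay below (12.6%), and in 26 the lines overlapped.

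**Figure D1:**
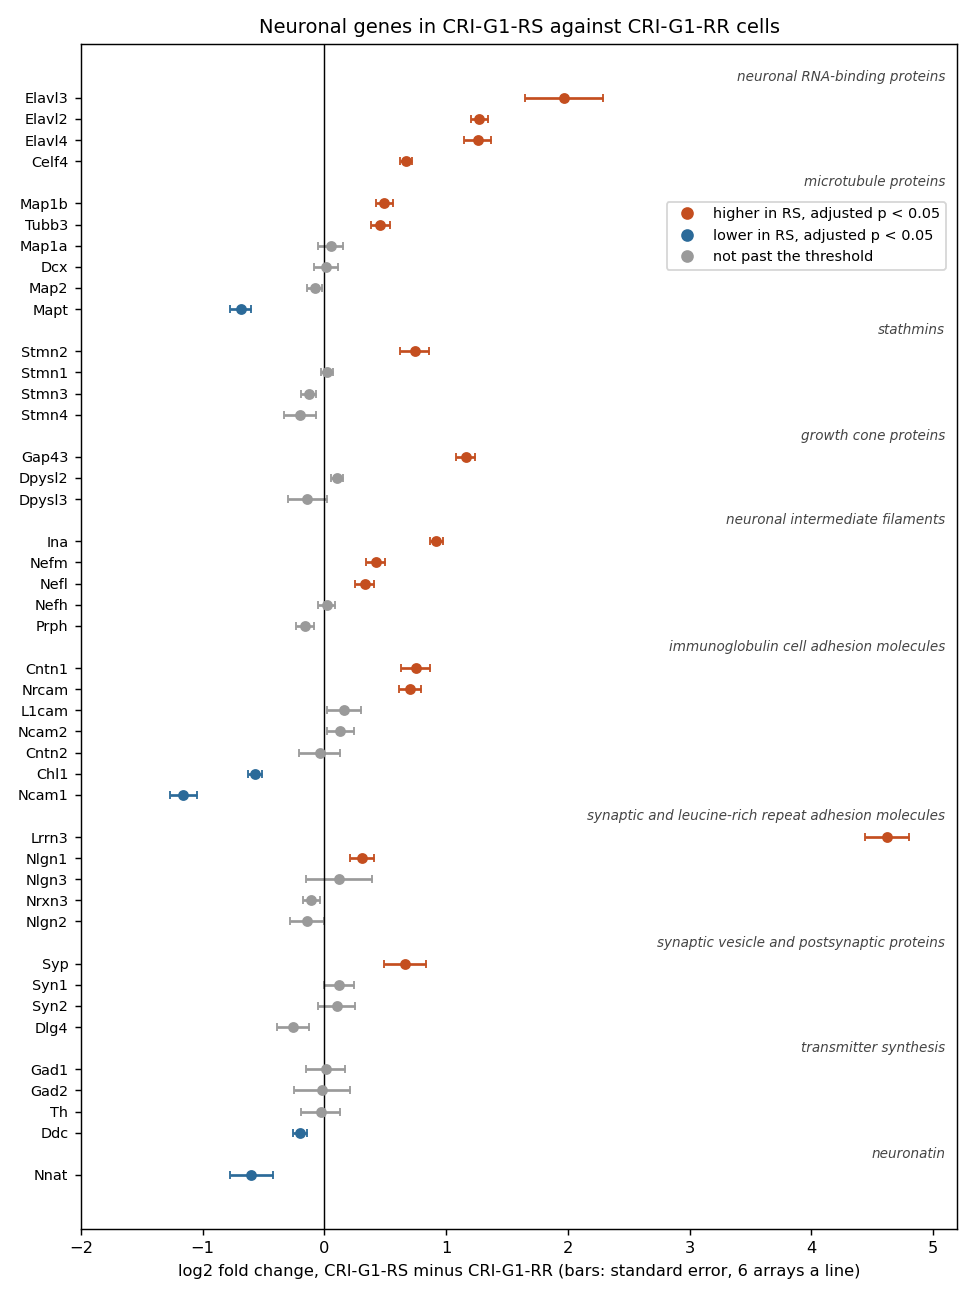
Log2 fold change (RS minus RR, horizontal axis) of the 43 measured genes by role, with bars of 1 standard error from the fit to 6 arrays a line. Points in orange were higher and points in blue lower in RS at an adjusted p under 0.05. Lrrn3 stands at 4.62, and all 4 RNA-binding proteins lie to the right of 0.

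A mean signal under 50 in both lines was found for 10 of the 43 genes (23.3%, where 25.2% of all genes had one). They were Dcx, Dpysl3, Ncam2, Cntn2, Nrxn3, Nlgn2, Nlgn3, Gad2, Th and Nnat, and adding 16 to such signals understates any change. Among the 33 genes above that limit in at least 1 line, 16 were higher (48.5%, against 26.6% of such genes on the array) and 4 lower (12.1%, against 23.3%). That limit is met by the brighter line, so it depends on the change itself. Lrrn3 met it in RS alone (mean 16.2 in RR) and Ncam1 in RR alone (mean 46.5 in RS). These shares are therefore no separate evidence beside the counts over all 43 genes. Several genes known as markers of young or particular neurons were in the dim set, among them doublecortin (Dcx), the microtubule-binding protein of migrating neurons, with mean signals of 6.67 ± 3.39 in RS and 6.2 ± 2.04 in RR (SD, n = 6 each).

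Lrrn3, a leucine-rich repeat transmembrane protein of neurons, differed most among the 43 genes. Its signal was 572 at the lowest, 789.7 at the median and 885 at the highest in RS, against 4.68, 12.3 and 32.5 in RR. All RR arrays were under 50, the limit taken for a low signal, and the lowest RS array stood far above the highest RR array. The means were 746 ± 116 in RS and 16.2 ± 10.8 in RR (SD, n = 6 each), at least 14.9-fold higher in RS when RR is set at that limit of 50, with a log2 change of 4.62 (± 0.18 standard error, adjusted p = 1.86e-09). Because the RR signals are close to the pseudocount, the size depended on it, at 5.66 with a pseudocount of 1 and 3.34 with 64.

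Upstream sequence is shown for Lrrn3 and for the 3 Hu genes that also changed by at least 2-fold, since these 4 had the largest log2 changes of the module. The 250 bases before each gene's start are given in the direction of the gene, from RefSeq on the rat build GRCr8, where all 4 lie on the minus strand: Lrrn3 at chr6:64247294-64247543, Elavl2 at chr5:111202288-111202537, Elavl3 at chr8:28859014-28859263 and Elavl4 at chr5:130367664-130367913. Capitals mark the letters of the motifs searched, read on either strand.
Lrrn3: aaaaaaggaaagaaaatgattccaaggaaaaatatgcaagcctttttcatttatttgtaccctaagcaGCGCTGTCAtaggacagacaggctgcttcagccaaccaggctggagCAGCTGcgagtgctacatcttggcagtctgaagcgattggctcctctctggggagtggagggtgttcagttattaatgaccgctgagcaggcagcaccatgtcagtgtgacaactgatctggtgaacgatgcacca
Elavl2: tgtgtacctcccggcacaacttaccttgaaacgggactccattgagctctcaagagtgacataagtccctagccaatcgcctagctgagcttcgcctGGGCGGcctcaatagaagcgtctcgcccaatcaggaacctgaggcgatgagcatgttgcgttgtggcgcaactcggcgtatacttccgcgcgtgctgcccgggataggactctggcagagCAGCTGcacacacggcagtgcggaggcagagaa
Elavl3: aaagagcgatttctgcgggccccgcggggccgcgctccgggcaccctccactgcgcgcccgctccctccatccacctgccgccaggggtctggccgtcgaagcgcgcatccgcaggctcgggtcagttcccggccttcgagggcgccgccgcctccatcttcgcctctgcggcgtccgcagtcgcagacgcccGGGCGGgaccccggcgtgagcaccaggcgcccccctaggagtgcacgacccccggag
Elavl4: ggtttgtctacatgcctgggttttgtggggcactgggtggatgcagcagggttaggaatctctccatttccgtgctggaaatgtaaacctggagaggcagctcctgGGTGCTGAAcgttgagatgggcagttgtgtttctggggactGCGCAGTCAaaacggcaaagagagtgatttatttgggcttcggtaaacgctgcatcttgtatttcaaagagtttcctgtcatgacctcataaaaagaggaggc
In the Lrrn3 sequence the capitals are an E-box (CAGCTG, the letters read by basic helix-loop-helix factors), which begins 136 bases before the start, and an antioxidant response element core (TGACNNNGC, on the opposite strand), which begins 182 bases before it. Elavl2 had the same E-box at 33 bases and a GC box (GGGCGG, the letters read by Sp factors) at 153 bases. Elavl3 had a GC box at 57 bases. Elavl4 had the left arm of RE1, the site of the repressor REST (TTCAGCACC, opposite strand), at 144 bases and an antioxidant response element core (opposite strand) at 103 bases. A match gives letters only and no binding was measured.

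Of the 44 genes, 30 had such a sequence in the table used, and the same motifs were counted in all 33469 sequences of the same length on both strands. The E-box CAGCTG occurred in 4 of the 30 (Elavl2, Ina, Lrrn3 and Syp, against 12.0% of all sequences) and CAGATG in 3 (14.0% of all). A GC box was found in 14 of 30 (30.5% of all), TATAAA in 5 (12.9%), the cyclic AMP response element TGACGTCA in 2, Syn1 and Th (1.59%), and TGACNNNGC, which shares its first letters with that element, in 3 (10.1%). The RE1 left arm was in Elavl4 alone (0.305% of all) and its right arm in 0 of 30 (0.373%). The 30 sequences were rich in G and C, with a median of 63.8% against 51.2% over all sequences and a median of 13.0 CpG pairs against 5.

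All 4 RNA-binding proteins were higher in RS cells (21.0% of all genes were), each with every RS array above every RR array (14.6% of all genes). Their median log2 change was 1.26. Elavl2 (HuB) had signals of 1277, 1342 and 1397 (lowest, median and highest) in RS and 459, 565 and 599 in RR, a log2 change of 1.27 (± 0.07 standard error, adjusted p = 2.04e-08). Its other probe sets gave 1.67 (adjusted p = 1.29e-08) and 1.03 (adjusted p = 4.87e-04), so that all 3 were higher in RS. Elavl4 (HuD), which stabilises the Gap43 message in neurons, had signals of 262, 277 and 306 in RS and 70.6, 115 and 136 in RR, a log2 change of 1.26 (± 0.11 standard error, adjusted p = 2.19e-06).

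For Elavl3 (HuC), the brightest probe set is of the class (suffix _x_at) that can cross-hybridise with related sequences. It gave 212, 233 and 437 in RS, where replicate 2 stood apart at the top, and 17.4, 65 and 108 in RR, a log2 change of 1.97 (± 0.32 standard error, adjusted p = 3.73e-04). The other probe set of Elavl3 gave 1.62 (adjusted p = 5.51e-05), also with no overlap. The RR arrays of Elavl3 varied widely, with a mean of 96.1 in replicates 1 to 3 and 27.1 in replicates 4 to 6, and both sets lay below every RS array. Elavl4 showed the same split less widely, at 128 and 87. Such a split without overlap was seen in 7 of the 43 genes (15.9% of all genes), the others being Mapt, Stmn3, Gap43, Cntn2 and Ddc, and nothing in the labels names a cause. With RR replicates 1 to 3 left out the log2 change of Elavl3 was 2.66, and with replicates 4 to 6 left out 1.28. Celf4, a CELF protein of excitatory neurons, had the smallest change of the 4, at 669 ± 25.1 in RS and 411 ± 9.15 in RR (SD, n = 6 each), a log2 change of 0.67 (adjusted p = 2.55e-07).

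**Figure D2:**
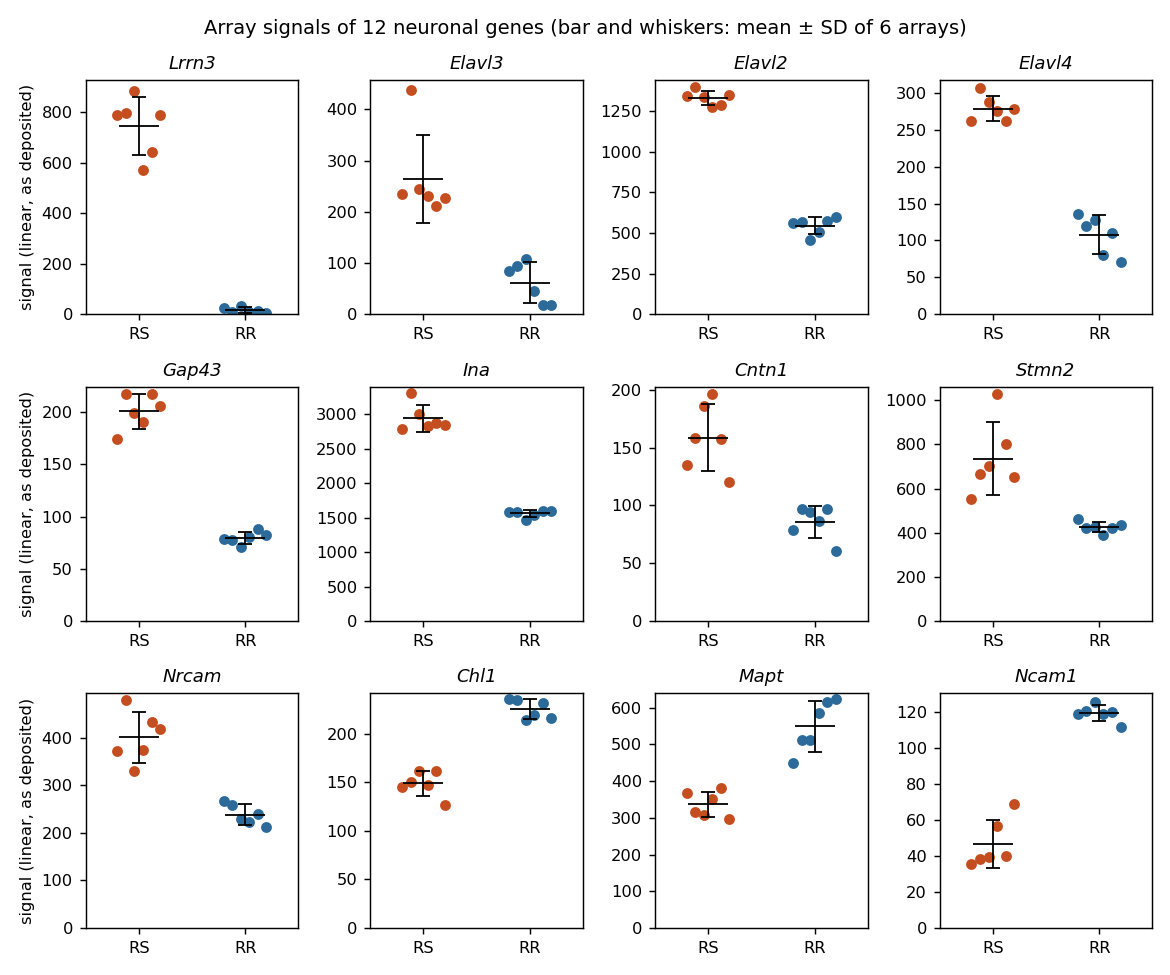
Signal per array (linear, as deposited, vertical axis starting at 0) of 12 genes, with RS to the left of RR in each panel and the mean ± SD of 6 arrays as a bar with whiskers. RS lies above RR in the first 9 panels and below it in those of Chl1, Mapt and Ncam1. All 12 genes belong to those whose lines did not overlap, while 26 of the 43 genes overlapped. Each panel shows the brightest probe set, and another probe set of Nrcam was lower in RS.

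Among the 6 microtubule proteins, 2 were higher, 1 was lower and 3 did not pass, where 21.0% of all genes were higher and 18.3% lower. Mapt, which encodes tau, the axonal microtubule-associated protein, was the 1 that fell. Its signals were 297, 334 and 380.3 in RS and 449, 549 and 623 in RR, a log2 change of -0.69 (± 0.09 standard error, adjusted p = 7.57e-05). The lines did not overlap, and the other 2 probe sets of Mapt were lower as well, at -0.32 (adjusted p = 0.0014) and -0.80 (adjusted p = 8.62e-05). RR signals of Mapt averaged 491 in replicates 1 to 3 and 609 in replicates 4 to 6, both above every RS array.

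Map1b, a microtubule-associated protein of growing axons, was higher in RS, with 1689, 1851 and 2039 against 1142, 1313 and 1474 in RR, a log2 change of 0.49 (± 0.07 standard error, adjusted p = 1.59e-04) and no overlap. Its other probe sets, which were dimmer, gave 0.44 (adjusted p = 0.121) and 0.16 (adjusted p = 0.571). Tubb3, the neuronal β-tubulin, gave 0.46 (adjusted p = 8.21e-04) on a probe set that several transcripts can share, and 0.11 (adjusted p = 0.45) on its other, dimmer probe set, so that its call rests on 1 of 2. Map2, the dendritic microtubule-associated protein, had mean signals of 999 ± 33.5 in RS and 1056 ± 73.9 in RR (SD, n = 6 each) and Map1a 237 ± 21.1 in RS and 227 ± 34 in RR (SD, n = 6 each), with log2 changes of -0.08 and 0.05 (adjusted p = 0.355 and 0.745).

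Stathmins bind tubulin dimers and destabilise microtubules. Of the 4, 1 passed the threshold (21.0% of all genes were higher and 18.3% lower), Stmn2 (SCG10, the stathmin of growth cones). Its signals were 554, 685 and 1029.5 in RS and 388, 426 and 461 in RR, a log2 change of 0.74 (± 0.12 standard error, adjusted p = 3.99e-04), with every RS array above every RR array. A further probe set of Stmn2 gave 362 ± 77.8 in RS and 387 ± 39.7 in RR (SD, n = 6 each), a log2 change of -0.12 (adjusted p = 0.561), so that the rise was seen on 1 of its 2 probe sets. Stmn4 had signals of 105, 162 and 208 in RS and 145, 182 and 194 in RR, which overlap (log2 change -0.20, adjusted p = 0.29). Stmn1, the stathmin of dividing cells, had 5007 ± 436 in RS and 5136 ± 173 in RR (SD, n = 6 each) and Stmn3 2416 ± 181 in RS and 2729.9 ± 209.7 in RR (SD, n = 6 each), with log2 changes of 0.02 and -0.13 (adjusted p = 0.822 and 0.133).

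Gap43, a membrane protein of growth cones that marks axon growth, rose more than 2-fold. Its signals were 174, 202 and 217 in RS and 71.1, 79.3 and 88.3 in RR, a log2 change of 1.16 (± 0.08 standard error, adjusted p = 1.50e-07). No RS array came near the RR range, although a further probe set of the gene was near 0 in both lines, at 3.17 ± 2.59 in RS and 2 ± 1.73 in RR (SD, n = 6 each). The collapsin response mediators, which link semaphorin signals to the cytoskeleton of the growth cone, did not pass. Dpysl2 (CRMP2) was bright, at 3403 ± 134 in RS and 3263 ± 195 in RR (SD, n = 6 each; log2 change 0.10, adjusted p = 0.18). Dpysl3 was dim, at 8.51, 24.7 and 28.9 in RS and 13.6, 27.5 and 34 in RR, which overlap (log2 change -0.14, adjusted p = 0.596).

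Of the 5 neuronal intermediate filaments, 3 were higher and 0 lower (21.0% and 18.3% of all genes were), and none of the 5 was dim. Ina, which encodes α-internexin, the filament of young neurons, had 2791, 2857 and 3313 in RS and 1473, 1580.2 and 1601 in RR, a log2 change of 0.92 (± 0.05 standard error, adjusted p = 4.49e-08). Every RS array lay above every RR array, on a further probe set also (log2 change 1.22, adjusted p = 5.30e-05). That further probe set is of the kind that several transcripts can share, and its RR arrays varied from 387 to 845. Nefm, the medium neurofilament subunit, had 554, 603 and 700.4 in RS and 392, 476 and 495 in RR, again with no overlap (log2 change 0.42 ± 0.08 standard error, adjusted p = 0.00167).

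Nefl, the light subunit on which neurofilaments assemble, changed less, at 930.0 ± 91.6 in RS and 739 ± 77.1 in RR (SD, n = 6 each). Its arrays overlapped, with a log2 change of 0.33 (adjusted p = 0.00777), and 0.27 without RR replicates 1 to 3 (adjusted p = 0.072). Its other probe set gave 0.82 (adjusted p = 3.01e-04) with no overlap. The heavy subunit Nefh had 955 ± 80.8 in RS and 937 ± 68.4 in RR (SD, n = 6 each), a log2 change of 0.02 (adjusted p = 0.856). Prph, which encodes peripherin, the filament of peripheral neurons, had 2879.7 ± 189.6 in RS and 3313 ± 321 in RR (SD, n = 6 each; log2 change -0.16, adjusted p = 0.0949). Among the filaments the calls therefore covered internexin and the light and medium subunits and not the heavy subunit or peripherin, and differences between the members were not tested.

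Of the 7 adhesion molecules of the immunoglobulin family 2 were higher, 2 were lower and 3 did not pass, where 21.0% of all genes were higher and 18.3% lower. Ncam1, the neural cell adhesion molecule, had 35.5, 39.7 and 68.9 in RS and 112, 119.6 and 126 in RR, a log2 change of -1.16 (± 0.11 standard error, adjusted p = 4.02e-06). It is a homophilic adhesion molecule that islet endocrine cells also carry, and its highest RS array lay well under its lowest RR array. The other 2 probe sets of Ncam1 had mean signals under 50 in both lines. Of these, the brighter was at 10.2 ± 2.72 in RS and 49.7 ± 19.9 in RR (SD, n = 6 each). It fell too (log2 change -1.26, adjusted p = 6.48e-04), with arrays that overlapped after normalization. The dimmest gave -0.58 (adjusted p = 0.0573). Chl1, a close relative of L1, was lower as well, at 149 ± 12.8 in RS and 225 ± 9.99 in RR (SD, n = 6 each; log2 change -0.57, adjusted p = 1.11e-05), with no overlap.

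Cntn1, which encodes contactin 1, an axonal adhesion molecule on a lipid anchor, was higher in RS. Its signals were 120.2, 158 and 196 in RS and 60.9, 90.6 and 97 in RR, a log2 change of 0.75 (± 0.12 standard error, adjusted p = 2.30e-04), with no overlap. Nrcam, a member of the L1 family found at nodes of Ranvier, gave calls in opposite directions on different probe sets. The brightest had 401 ± 53.3 in RS and 239 ± 21.6 in RR (SD, n = 6 each; log2 change 0.70, adjusted p = 4.66e-05), another had 59 ± 12.3 in RS and 99.2 ± 7.98 in RR (SD, n = 6 each; log2 change -0.65, adjusted p = 4.08e-04), and the remaining one gave -0.20 (adjusted p = 0.208). In the first 2 of these the lines did not overlap. L1cam had a log2 change of 0.16 (adjusted p = 0.457), and Ncam2 and Cntn2 were dim at 0.13 and -0.04 (adjusted p = 0.461 and 0.891).

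Of the synaptic adhesion molecules other than Lrrn3, Nlgn1 alone passed on its brightest probe set (21.0% of all genes were higher and 18.3% lower). Neuroligin 1 is the postsynaptic partner of neurexins at excitatory synapses, and its signals were 219, 242 and 287 in RS and 159, 196 and 227 in RR, a log2 change of 0.31 (± 0.10 standard error, adjusted p = 0.026). These ranges overlap, and leaving out 1 array took the call away in 4 of 12 cases, without RR replicate 3 (adjusted p = 0.0519), RR replicate 4 (0.0588), RS replicate 1 (0.0557) or RS replicate 5 (0.0593). The other probe set of Nlgn1 gave 0.60 (adjusted p = 0.00322) with no overlap. For Nlgn2, the neuroligin of inhibitory synapses, both probe sets were under 50 and differed, the brighter at -0.14 (adjusted p = 0.535) and the dimmer at 0.63 (adjusted p = 2.56e-04), with 23.1 ± 6.79 in RS and 8.86 ± 2.1 in RR (SD, n = 6 each). Nlgn3 and Nrxn3 were dim in both lines, with mean signals of 25.3 ± 16.2 and 4.35 ± 2.01 in RS against 21 ± 11 and 5.71 ± 0.92 in RR (SD, n = 6 each).

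**Figure D3:**
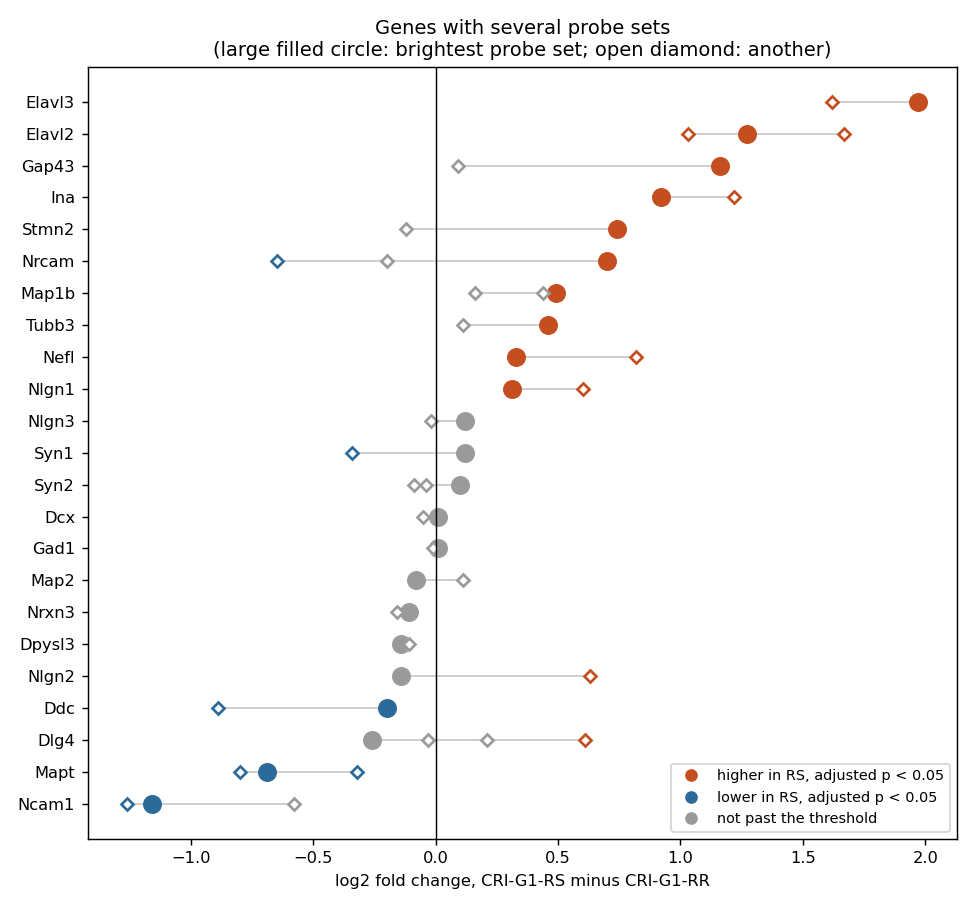
Log2 fold change (RS minus RR) of every probe set of the 23 genes that have several, with the brightest as a large filled circle and the others as open diamonds. Orange and blue mark higher and lower in RS at an adjusted p under 0.05. Nrcam has probe sets called on both sides of 0, and in Elavl2, Elavl3, Ina and Mapt every probe set was called the same way.

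Across the 23 genes with several probe sets, 9 did not have the same call on all of them (42.0% of such genes on the array) and 1, Nrcam, was called in both directions (2.39%). Probe sets of a gene can lie in different exons or ends of its transcripts, and which transcripts each reads was not examined here.

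Of the 4 proteins of synaptic vesicles and the postsynaptic density, Syp was higher in RS (21.0% of all genes were). Synaptophysin, its product, is an abundant membrane protein of small vesicles in neurons and endocrine cells. The signals of Syp were 472, 556 and 698 in RS and 222, 333 and 568 in RR, a log2 change of 0.66 (± 0.17 standard error, adjusted p = 0.00973), and the lines overlapped. The call was lost without RR replicates 1 to 3 (adjusted p = 0.0742), at the same log2 change of 0.66 and with fewer arrays. Dlg4, which encodes the postsynaptic scaffold PSD-95, had 83.6, 100.2 and 147 in RS and 104, 126 and 149 in RR, a log2 change of -0.26 (± 0.13 standard error, adjusted p = 0.144). A further probe set of Dlg4 was higher in RS, at 126 ± 17.1 against 75.7 ± 10.2 in RR (SD, n = 6 each; log2 change 0.61, adjusted p = 1.21e-04), so that the gene has no single direction here. Synapsins tether vesicles to actin, and Syn1 and Syn2 had log2 changes of 0.12 (adjusted p = 0.518) and 0.10 (adjusted p = 0.69), with a dimmer probe set of Syn1 at -0.34 (adjusted p = 0.0189).

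Of the 4 enzymes of transmitter synthesis, 1 was lower and 0 were higher (18.3% and 21.0% of all genes were). Ddc, the decarboxylase that forms dopamine and serotonin and is active in islets, had 3991, 4341 and 4766 in RS and 4888, 5222 and 5566 in RR, a log2 change of -0.20 (± 0.06 standard error, adjusted p = 0.0216). The lines did not overlap. The call was lost without RR replicates 1 to 3 (log2 change -0.23, adjusted p = 0.0758) or 4 to 6 (-0.18, adjusted p = 0.15). Its dimmer probe set had a log2 change of -0.89 (adjusted p = 7.50e-04). Th, tyrosine hydroxylase, the step before it, was dim at 29.6, 42.7 and 61.6 in RS and 30.9, 44.6 and 58.7 in RR, which overlap (log2 change -0.03, adjusted p = 0.918). The glutamate decarboxylases make GABA, and Gad1 had 169 ± 22.7 in RS and 169.5 ± 44.2 in RR (SD, n = 6 each), while Gad2 was dim at 13 ± 6.5 in RS and 14.3 ± 11.1 in RR (SD, n = 6 each). Their log2 changes were 0.01 and -0.02 (adjusted p = 0.965 and 0.967). Nnat, which encodes neuronatin, a small membrane protein of neurons and β cells, had 3.37, 8.19 and 24.8 in RS and 15.8, 25.4 and 32.2 in RR. It passed with a log2 change of -0.60 (adjusted p = 0.0199) at signals under 50 that overlap. It did not pass when RR replicates 1 to 3 or 4 to 6 were left out (log2 change -0.57 and -0.64, adjusted p = 0.135 and 0.0831).

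Neighbouring genes were examined to see whether the changes stood alone on the chromosome. For each gene the 50 nearest genes whose mean signal reached 100 were taken, in the gene order of RefSeq on GRCr8. Brighter genes passed more often than all genes. Of those on the array reaching 50 in either line, 26.6% were higher and 23.3% lower, against 21.0% and 18.3% of all genes. For neighbours these shares are only a guide, since their limit was 100. Around Lrrn3 the median log2 change was 0.08, with 20 neighbours higher and 10 lower. The largest among them in absolute size were -1.62 for Rnaseh1 and 1.61 for Pxdn, and Lrrn3 itself was at 4.62. Dock4, next to it in this order, was at 1.09 (adjusted p = 1.24e-05), and Nrcam, at 0.70, is the third gene on the other side. Lrrn3 lies within Immp2l, a subunit gene of a mitochondrial peptidase, which had 73 ± 21.8 in RS and 87.5 ± 20.8 in RR (SD, n = 6 each) and did not pass (log2 change -0.26, adjusted p = 0.364).

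**Figure D4:**
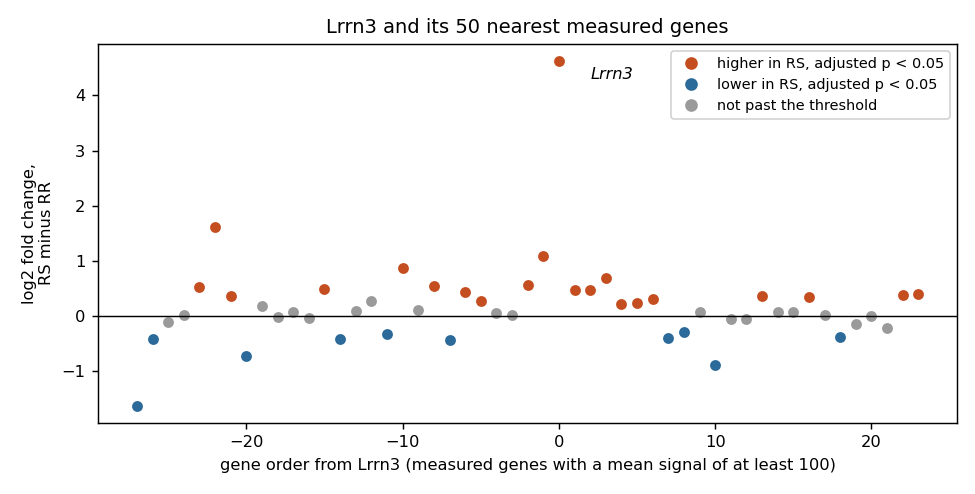
Log2 fold change (RS minus RR, vertical axis) of Lrrn3 and its 50 nearest measured genes, in their order along the chromosome (horizontal axis, in genes from Lrrn3). Lrrn3 is at 4.62, and the neighbours lie between -1.62 and 1.61.

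For some of the other changed genes the median of the neighbours lay further from 0. The guide for the counts is again 26.6% higher and 23.3% lower among genes on the array reaching 50 in either line. Around Ina the median of the 50 neighbours was 0.44, with 35 higher and 3 lower, around Elavl3 0.38 (35 higher and 3 lower), around Cntn1 0.32 (33 and 5), and around Gap43 0.29 (26 and 5). Celf4, Stmn2 and Nlgn1, also higher in RS, had neighbours with medians of 0.22, 0.23 and 0.20. Map1b went against its neighbours. It was higher at 0.49, while their median was -0.22, with 6 higher and 27 lower. Around Elavl2 and Elavl4 the medians were 0.09 and 0.02, and around Ncam1, Mapt and Chl1 -0.02, 0.08 and 0.05. The strongest downward shifts were around Th (-0.45, with 5 higher and 38 lower) and Map2 (-0.37, with 4 and 33), neither of which passed. Nnat lies within Blcap, which was lower too, at 425 ± 43.5 in RS and 605 ± 60.7 in RR (SD, n = 6 each; log2 change -0.50, adjusted p = 3.57e-04), and Stmn3 within Rtel1, at -0.28 (adjusted p = 8.97e-04). Copy number was not measured, and the part of neighbouring genes in each result was not tested.

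Further genes of the same functions were taken from 7 lists of 181 genes, of which 148 were measured. Of the 148, 44 were higher and 24 lower in RS (21.0% and 18.3% of all genes were), with a median log2 change of 0.07, and 34 were under 50 in both lines. Tubulins, microtubule-associated proteins, motors and collapsin response mediators had the most that rose, 15 of 29 higher and 5 lower (median 0.23). Kif5c, a neuronal kinesin that carries cargo along axons, had 929 ± 52.7 in RS and 392 ± 45.2 in RR (SD, n = 6 each; log2 change 1.21, adjusted p = 1.08e-07), and Dclk1, a kinase related to doublecortin, was at 1.09 (adjusted p = 1.00e-06). Map4, a ubiquitous microtubule-associated protein, and the tubulin Tuba4a fell, at -1.05 (adjusted p = 2.85e-05) and -0.37 (adjusted p = 3.27e-04). Besides the 4 members, 5 of 18 RNA-binding and splicing proteins were higher and 2 lower (median 0.0049). Cpeb1, a regulator of translation in neurons, and Khdrbs3, a splicing factor, were at 1.00 (adjusted p = 1.44e-06) and 0.97 (adjusted p = 8.87e-06), and Rbfox1, a neuronal splicing factor, was at -0.32 (adjusted p = 0.00734). Of 8 other intermediate filaments, 2 were higher and 1 lower (median 0.04), with the nuclear lamin Lmnb1 at 0.83 (adjusted p = 8.12e-07) and Synm, synemin, at 0.70 (adjusted p = 2.72e-04).

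Of 31 other neural adhesion molecules 8 were higher, 4 were lower and 19 did not pass, against 21.0% higher and 18.3% lower among all genes (median 0.07), and 12 of the 31 were dim in both lines. Alcam, an immunoglobulin adhesion molecule that guides axons, had 1553 ± 57.5 in RS and 326 ± 115 in RR (SD, n = 6 each; log2 change 2.26, adjusted p = 8.49e-07), and Flrt2, a leucine-rich repeat ligand of Unc5 receptors, 544 ± 25.4 in RS and 124 ± 17.8 in RR (SD, n = 6 each; log2 change 1.98, adjusted p = 8.82e-10). Opcml, a lipid-anchored adhesion molecule, fell to 33.2 ± 20.6 in RS, against 143 ± 25.8 in RR (SD, n = 6 each; log2 change -1.79, adjusted p = 3.57e-05). Cdh2, N-cadherin, was at -0.29 (adjusted p = 0.00121). The arrays of these 4 genes did not overlap between the lines.

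Of 33 other vesicle and scaffold proteins 7 were higher and 5 lower, against 21.0% higher and 18.3% lower among all genes (median 0.09). The postsynaptic scaffold Shank2 was at 1.14 (adjusted p = 4.82e-07) and the vesicle protein Syngr3 at 0.68 (adjusted p = 5.53e-05), while Syngr2, its relative outside neurons, was at -1.26 (adjusted p = 2.14e-07) and Lin7a, a scaffold, at -0.89 (adjusted p = 5.15e-05). Among 15 transmitter enzymes and carriers, 2 were higher and 3 lower, against the same shares of all genes (median -0.10). Gch1, which starts the synthesis of tetrahydrobiopterin, the cofactor of tyrosine hydroxylase, had 566 ± 72.2 in RS and 181 ± 69.2 in RR (SD, n = 6 each; log2 change 1.60, adjusted p = 2.71e-05), and Pts, the next enzyme of that pathway, went the other way at -0.75 (adjusted p = 9.18e-05). Maob, a monoamine oxidase, was at 0.47 (adjusted p = 9.80e-05), and Slc18a1, a vesicular monoamine transporter, at -0.66 (adjusted p = 0.00246).

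REST represses neuronal genes in other cells through RE1 sites, with CoREST and chromatin partners. Of 14 measured genes of its complex 5 were higher and 4 lower, against 21.0% higher and 18.3% lower among all genes (median 0.04). Rcor2, a CoREST protein, had 216 ± 57 in RS and 19.1 ± 6.03 in RR (SD, n = 6 each; log2 change 2.70, adjusted p = 8.88e-08), and Smarca4, a chromatin remodeller, was at 0.83 (adjusted p = 6.06e-06). The phosphatases Ctdsp2 and Ctdsp1, which act with REST, were lower, at -1.34 (adjusted p = 2.24e-07) and -0.72 (adjusted p = 5.84e-06). Rest itself, named here after its values were seen, was dim in both lines and did not pass (12.4 in RS and 14.6 in RR, log2 change -0.14, adjusted p = 0.644).

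**Figure D5:**
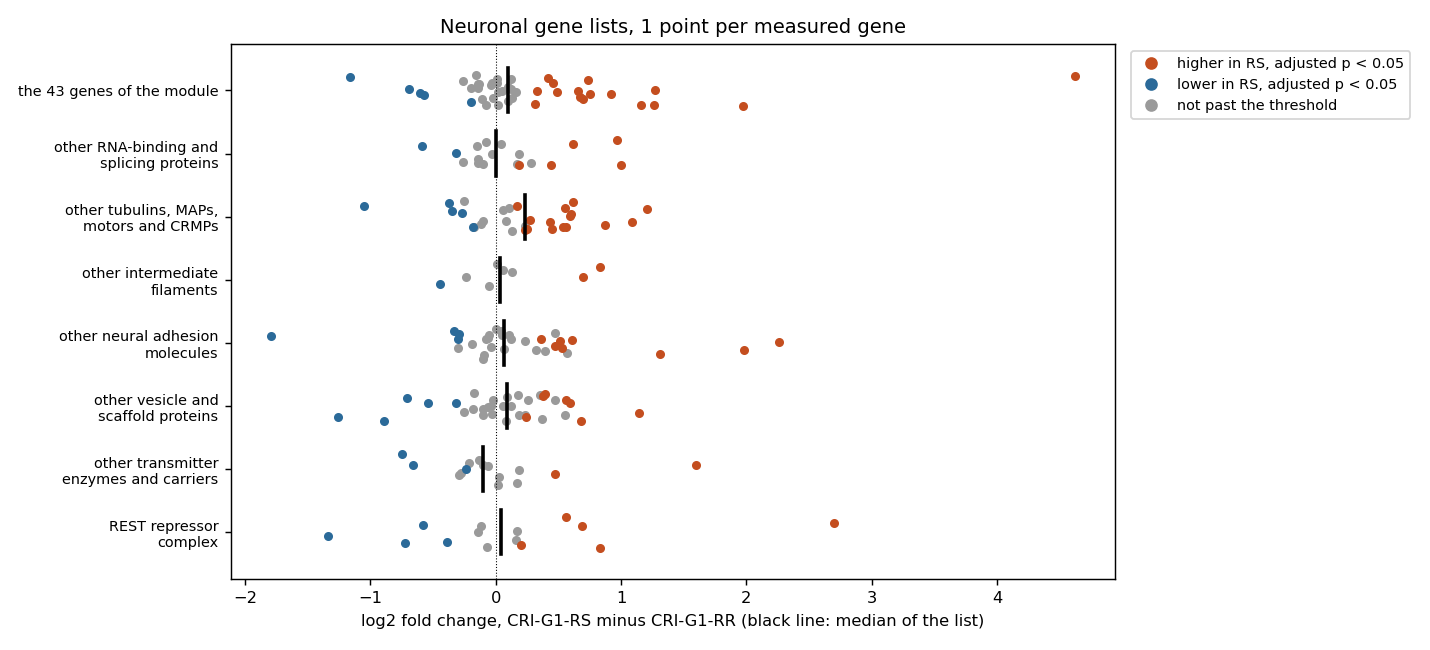
Log2 fold change (RS minus RR, horizontal axis) of the 43 genes and of the measured genes of 7 wider lists, 1 point per gene, with the median of each list as a black line. Medians lie between -0.10 and 0.23, and the farthest points are Lrrn3 at 4.62 and Rcor2 at 2.70 to the right and Opcml at -1.79 to the left.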

How the data were processed

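Total RNA of 6 passages of CRI-G1-RS and 6 of CRI-G1-RR cells was amplified, biotin-labelled and hybridised to 12 Affymetrix Rat 230 2.0 arrays, 1 per sample. The deposited values are linear signal intensities per probe set from GCOS 1.4, per the labels, scaled by the authors to a common trimmed mean (250.068 to 250.075 here). The paper's Methods describe log2 values of robust multi-chip averaging, which these are not, so the analysis laid down for linear signals was used. After quantile normalization, log2(signal + 16) was fitted with cell line as the only term by limma 3.58.1 in R 4.3.3, without a filter on low signals. P-values were adjusted over 31099 probe sets. Precision is limited by the number of arrays. In the platform annotation 20832 probe sets have 1 symbol, 436 have several and 9831 have none.

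The module, the wider lists and the tests were chosen with earlier results of these data known. All members are named. Those at least 2-fold different and the 2 of largest change in each role are given by lowest, median and highest array, and up to 2 genes a direction from each wider list, with arrays not overlapping, are named. Promoter letters are those of RefSeq GRCr8. Passages were collected in pairs per the labels, which do not tie the pair to the replicate number, so no block was used. Alternatives were other scaling, pseudocounts of 1 and 64, a filter on low signals, the replicate block, an intensity trend and array weights. Further ones were the probe set of smallest p, omission of probe sets with suffix _x_at or _s_at, and leaving out each array. Leaving out RR replicates 1 to 3 or 4 to 6 was chosen after seeing the data.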

Additional observations from a re-analysis of the deposited data

Results flagged for a closer look

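Over 86 groups of 6 arrays, 4 had 1 array far from the others, where chance gives about 1 group in 20. In RS replicate 2, Elavl3 had a signal of 437, with the next highest array at 244 and the lowest at 212. Without that replicate the log2 change of Elavl3 was 1.82 (adjusted p = 9.37e-04), against 1.97 with it. Stmn3 was also highest in RS replicate 2, at 2766 with 2402 next and 2236 lowest, and without that replicate Stmn3 passed the threshold (adjusted p = 0.0441). Stmn4 was lowest in RR replicate 6, at 145, with 181 next and 194 highest. Syn2 was highest in RR replicate 5, at 124, with 76.2 next and 59.3 lowest.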

How the results depend on the processing

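Under every alternative run, all called genes of the module kept their direction. Of the 21, 15 also kept an adjusted p under 0.05 (20 of 21 where 1 array was left out at a time). Taking each further probe set in turn was not among the alternatives. On such probe sets Nrcam (-0.65 and -0.20) and Stmn2 (-0.12) had the opposite sign. Same-numbered arrays of the lines did not deviate together (r from -0.0627 to 0.077, 0 of 6 pairs over 0.1). For 3 arrays the best match in the other line had their own number. Such correlations cannot tell which passages were collected together. With the number as a replicate block 16 genes of the module were higher and 4 lower. In that fit 9204 probe sets were called in place of 9860, and Nnat did not pass (adjusted p = 0.0545). With a pseudocount of 64, 3 genes changed at least 2-fold in place of 6. Without RR replicates 1 to 3, 13 were higher and 3 lower in place of 16 and 5, and without RR replicates 4 to 6, 15 were higher and 3 lower. With these fewer arrays, 8019 and 7588 of all probe sets were called in place of 9860. Leaving out 1 array gave 15 to 16 higher and 5 to 6 lower genes, 6 at least 2-fold, and 9162 to 10010 probe sets. Lost without RR replicates 1 to 3 were Nnat, Nlgn1 (adjusted p = 0.107), Nefl (0.072), Syp (0.0742) and Ddc (0.0758), and without RR replicates 4 to 6 Nnat, Nlgn1 (0.0601) and Ddc (0.15). Prph passed with centring on the median (-0.22, adjusted p = 0.0442), with an intensity trend (0.0408) and without RR replicate 5 (0.043), and Dlg4 without RS replicate 5 (0.0272).

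Under the alternatives run, signs changed only in genes that had not passed. With centring on the median Stmn1 was at -0.06, with the deposited scaling alone at -0.04 and without RR replicates 4 to 6 at -0.01. Gad2 was at 0.06 with a pseudocount of 1 and Dcx at -0.02 with array weights. Without RR replicates 1 to 3 the log2 changes were -0.03 for Map1a, -0.02 for Nefh, 0.11 for Cntn2, -0.03 for Syn1, -0.03 for Syn2, -0.27 for Gad1, 0.17 for Gad2, -0.0043 for Dcx and 0.02 for Th, and without RR replicates 4 to 6 -0.15 for Nlgn3. With the probe set of smallest p, Dcx was at -0.05, Syn1 at -0.34, Syn2 at -0.09, Nlgn2 at 0.63 and Dlg4 at 0.61. With 1 array left out, Dcx ranged over -0.05 to 0.05, Th -0.11 to 0.04, Gad1 -0.1 to 0.09, Gad2 -0.14 to 0.09, Cntn2 -0.14 to 0.05, Nlgn3 -0.02 to 0.3 and Nefh -0.02 to 0.06. The cause of these changes was not tested. Signals under 50 limit what the 10 dim genes can show.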
